A study of Mus musculus with 2 samples.

Results

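Galectins were followed in mouse embryonic stem cells (mESCs) after depletion of AIMP3, through 9 probes for 7 genes (*Lgals1*, *Lgals2*, *Lgals3*, *Lgals4*, *Lgals7*, *Lgals8* and *Lgals9*) among 55681 probes on the array. A probe was taken as a galectin probe when its accession led to one of these symbols in RefSeq, which gave 3 probes for *Lgals4* and 1 for each of the others. The galectins were proposed as a group with the results of these arrays in view, since *Lgals3* is among the largest rises, so their ratios between AIMP3-depleted and control cells are given as a description and carry no test. All cells, controls included, carried loxP-flanked *AIMP3* alleles and a tamoxifen-inducible Cre recombinase (AIMP3f/f;cre-ERT2). AIMP3-depleted cells received 2 μM tamoxifen (4-OHT) for 4 days in medium with LIF and were sampled as 2 replicates, whereas control cells received ethanol. Each of the 2 arrays compared Cy5-labelled RNA of 1 AIMP3-depleted replicate with the same pool of control RNA in Cy3, so that the control is 1 sample. The dyes were not swapped, and no cells without floxed alleles or without Cre were analysed here, so the loss of AIMP3, an effect of 4-OHT with Cre and a dye bias of a gene cannot be told apart. The labels name MEF feeder layers as the usual culture, while the methods describe MEF-conditioned medium during drug treatment.

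Galectins are small proteins that bind β-galactosides, above all N-acetyllactosamine on the glycans of glycoproteins. They are made in the cytosol without a signal peptide, leave the cell by a route outside the classical secretory pathway, and act both outside the cell, where they link glycoproteins into lattices, and inside it. Galectin-1, galectin-2 and galectin-7 consist of a single carbohydrate recognition domain and can form dimers. Galectin-3 joins such a domain to a long flexible N-terminal stretch through which it forms oligomers, and galectin-4, galectin-8 and galectin-9 carry a pair of different domains in 1 chain. Galectin-1 and galectin-3 are abundant in many mesenchymal and epithelial cells, and galectin-3 is also known as a macrophage antigen. Galectin-2 and galectin-4 are best known from the gut, and galectin-7 from stratified epithelia.

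RefSeq promoter windows (assembly GRCm38.p6, 300 bases around the transcription start) matched 6 of the 7 genes, and *Lgals1* had no entry. The windows of *Lgals3* and *Lgals9*, which were higher in AIMP3-depleted cells, are shown with that of *Lgals4*, which stayed near equal, on the strand of the gene and with matches to the searched motifs in capitals.
Lgals3 (chr14:47373610-47373909, + strand): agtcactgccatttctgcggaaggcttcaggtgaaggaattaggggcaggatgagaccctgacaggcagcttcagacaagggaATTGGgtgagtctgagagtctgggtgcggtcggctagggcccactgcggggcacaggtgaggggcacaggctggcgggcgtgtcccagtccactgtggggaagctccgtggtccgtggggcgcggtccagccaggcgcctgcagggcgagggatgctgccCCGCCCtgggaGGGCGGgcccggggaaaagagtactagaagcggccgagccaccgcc
Lgals9 (chr11:78984875-78985174, - strand): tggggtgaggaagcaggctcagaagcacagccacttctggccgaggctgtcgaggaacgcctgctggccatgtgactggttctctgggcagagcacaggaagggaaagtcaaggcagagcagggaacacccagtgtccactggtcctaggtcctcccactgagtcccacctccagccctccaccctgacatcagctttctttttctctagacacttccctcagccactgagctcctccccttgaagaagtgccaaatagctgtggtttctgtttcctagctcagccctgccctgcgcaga
Lgals4 (chr7:28833544-28833843, + strand): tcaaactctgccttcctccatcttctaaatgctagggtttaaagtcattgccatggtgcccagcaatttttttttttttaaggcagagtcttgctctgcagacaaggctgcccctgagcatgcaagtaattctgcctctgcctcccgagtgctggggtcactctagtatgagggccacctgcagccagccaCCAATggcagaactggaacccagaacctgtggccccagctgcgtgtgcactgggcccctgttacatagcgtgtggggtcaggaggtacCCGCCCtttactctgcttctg
The motifs were the TATA box (TATAAA), the GC box (GGGCGG), the CCAAT box (CCAAT) and the AP-1 site (TGANTCA), searched on both strands, and no matches overlapped in these windows. *Lgals3* held 2 GC boxes at the start and 1 CCAAT box, *Lgals4* held 1 of each, and *Lgals9* held no match. The *Lgals3* window was also the richest in G and C among the 6 genes, at 67% with 18 CpG dinucleotides, against 51.7% to 58% and 4 to 6 CpG in the other 5. Among the 6 galectin windows, a GC box was in those of *Lgals3*, *Lgals4* and *Lgals7*, and a CCAAT box in those of *Lgals3*, *Lgals4* and *Lgals8*. A GC box was present in 35.7% and a CCAAT box in 37.4% of all 32851 windows. None of the 6 held a TATA box (13.6% of all windows) or an AP-1 site (7.81%), and at these shares nothing is read from their absence. These matches describe the letters only, and binding at these windows was not measured.

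The arrays as a whole were of even quality. *Eef1e1*, the gene that encodes AIMP3, was lower in both AIMP3-depleted replicates, at a log2 ratio of -0.90 ± 0.0067 (SD, n = 2; limma, Benjamini-Hochberg adjusted p = 5.07e-05). It has 1 probe, whose place relative to the deleted part is not given in the sources used here. Between 59.3% and 60.6% of the spots of a channel were well above background, the median signal was 2.68 to 3.31 times the local background, and no spot was saturated (0 spots). All 12 marker genes of mESCs fixed for this purpose were well above background in the control. Ratios were computed after background correction (normexp) and loess within each array. The brightest probe stood for a gene, and 24022 genes passed the filter on dim probes. An accession without a RefSeq name counted as a gene of its own. A gene over 1.5-fold (log2 ratio 0.58) with an adjusted p under 0.05 was called changed. This held for 5.52% of the tested genes in the upward and 0.791% in the downward direction. The adjusted p removed no gene over 1.5-fold in either direction, so these calls rest on the fold alone. Over all tested genes the median log2 ratio was 0.02. Nothing in the labels says that the replicates came from separate cultures, so these p-values measure only the spread between these samples.

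Of the 6 galectin genes that passed the filter, 3 were over 1.5-fold higher in AIMP3-depleted mESCs, namely *Lgals3*, *Lgals1* and *Lgals9*, and 0 were lower. Among all tested genes 5.52% lay over 1.5-fold on the higher side, and because the galectins were chosen from this contrast, nothing is read from the comparison. Over 1.5-fold on both arrays were *Lgals3* and *Lgals1*, where the share of all tested genes is 4.69%. *Lgals7*, the remaining member, was not well above background in either channel on either array.

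*Lgals3*, which encodes galectin-3, had the highest ratio of the family. With replicate 1 its median spot intensity was 4979 in control and 28188 in AIMP3-depleted cells, and with replicate 2 it was 5195 and 26003, over local backgrounds of 46 to 64. The log2 ratio was 1.70 for replicate 1 and 1.78 for replicate 2. AIMP3-depleted cells thus had a 3.26-fold and a 3.44-fold higher level, with a mean log2 ratio of 1.74 ± 0.056 (SD, n = 2), or 3.35-fold. Only 6 of the 24022 tested genes had a higher mean log2 ratio.

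*Lgals1*, which encodes the dimeric galectin-1, came next. The median intensity was 19716 for the control and 87836 for AIMP3-depleted cells with replicate 1, and 20629 and 84966 with replicate 2. Its log2 ratio was 1.23 and 1.38 on the arrays of replicates 1 and 2, with a mean of 1.31 ± 0.10 (SD, n = 2), which is 2.47-fold. Both *Lgals1* values lay below both *Lgals3* values, and 76 tested genes had a higher mean than *Lgals1*.

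The control spots of *Lgals3* and *Lgals1* were 99.6 to 464 times as bright as the local background, so both genes were already detected in the ethanol-treated cells. Cy5 spots were brighter than Cy3 spots throughout the arrays, with a median raw ratio of 1.61 for replicate 1 and 1.35 for replicate 2, and loess removes this common part. Raw intensities are therefore not read as fold changes.

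**Figure D1:**
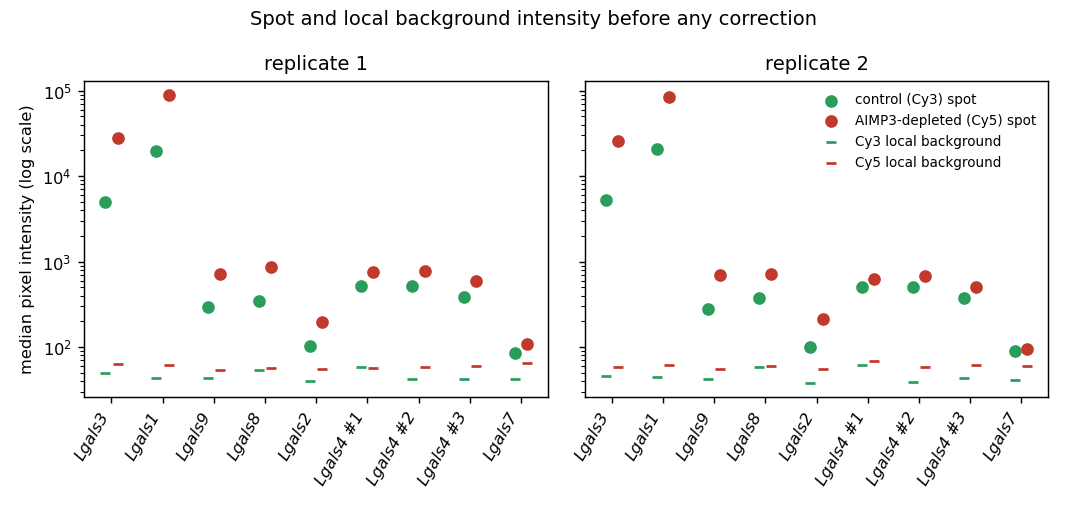
Median pixel intensity (log axis) of the spot (circles) and of its local background (dashes) for the 9 galectin probes, before any correction, in the control (Cy3, green) and AIMP3-depleted (Cy5, red) channel of each array. *Lgals3* and *Lgals1* lie far above the background in both channels, *Lgals2* has 2.58 to 3.82 times the background and *Lgals7* 1.58 to 2.2 times. Levels of different probes are not comparable.

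*Lgals9*, whose product galectin-9 is a ligand of the immune receptor TIM-3, was the last member over 1.5-fold. Its median intensity was 293.5 in the control and 722 in AIMP3-depleted cells with replicate 1, and 281 and 694 with replicate 2. The log2 ratio was 0.582 for replicate 1, just under the 1.5-fold line at 0.585, and 0.819 for replicate 2, with a mean of 0.70 ± 0.17 (SD, n = 2). The mean of *Lgals9* thus passed 1.5-fold (1.62-fold) through the array of replicate 2.

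*Lgals8*, whose product galectin-8 binds glycans exposed on ruptured endosomes and lysosomes, fell just short of the line. Its median intensity was 348 in the control and 861 in AIMP3-depleted cells with replicate 1, against 374.5 and 717 with replicate 2. The log2 ratio was 0.62 and 0.52 on the arrays of replicates 1 and 2, with a mean of 0.57 ± 0.068 (SD, n = 2), or 1.48-fold. The values of *Lgals8* and *Lgals9* overlapped, so that their order is within the spread between the arrays.

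*Lgals2*, which encodes galectin-2, was measured close to the background. Its median intensity was 103 in the control and 195 in AIMP3-depleted cells with replicate 1, and 100 and 214 with replicate 2, over local backgrounds of 38 to 56. The log2 ratio was 0.29 and 0.59 on the 2 arrays, with a mean of 0.44 ± 0.21 (SD, n = 2), the widest spread in the family. Its values overlapped those of *Lgals8*. The ratio of *Lgals2* depended on the processing. It was 0.64 with no background subtraction, 1.23 ± 0.41 (SD, n = 2) from the scanner software's processed signals and 1.27 ± 0.41 (SD, n = 2) in the authors' deposited table, which both differ in the background correction and the dye normalization together. The normexp step adds an offset of 50 to each intensity, which pulls the ratio of a dim probe towards 0. *Lgals2* was higher in AIMP3-depleted cells on both arrays under each of these settings, while its size stays uncertain within this range.

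*Lgals4*, which encodes galectin-4, was the only gene of the family with several probes. Their log2 ratios were -0.14 and -0.11, -0.16 and -0.02, and -0.09 and -0.04 on the arrays of replicates 1 and 2. The 3 probes gave means of -0.13, -0.09 and -0.06, a range smaller than the spread of the second probe between the arrays (SD 0.097). These probes had more signal than background in the control (8.36 to 12.6 times), so the transcript was measured and its ratio lay near 1. With median centring in place of loess the brightest *Lgals4* probe moved to 0.08, while the median of all genes moved to 0.18.

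*Lgals7*, which encodes the epithelial galectin-7, gave a median intensity of 85 and 90 in the control and of 109.5 and 94.5 in AIMP3-depleted cells, at 1.58 to 2.2 times the local background. It was not well above background, so no fold is given.

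**Figure D2:**
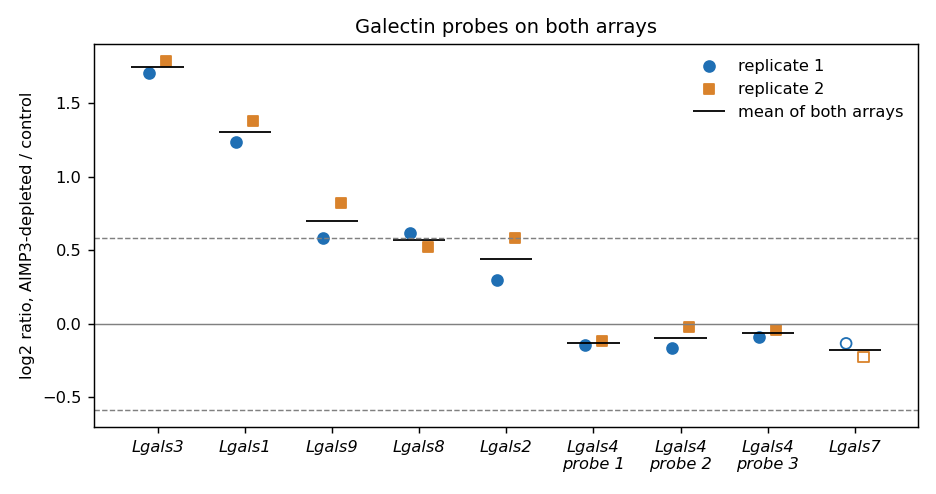
AIMP3-depleted over control cells as a log2 ratio (vertical axis) for each galectin probe on the array of replicate 1 (circles) and replicate 2 (squares), with the mean as a bar and 1.5-fold as dashed lines; open symbols mark *Lgals7*, which was not well above background. The means fall from 1.74 for *Lgals3* and 1.31 for *Lgals1* through 0.70 (*Lgals9*), 0.57 (*Lgals8*) and 0.44 (*Lgals2*) to between -0.13 and -0.06 for the 3 *Lgals4* probes.

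The pooled control RNA was the same on both arrays, so a difference between its values there is technical, from the labelling, hybridization and scanning to the background correction and dye normalization behind the processed signals. In these signals, the control level of *Lgals1* differed by -0.01 (log2, replicate 2 minus replicate 1) and that of *Lgals3* by 0.02. *Lgals8* differed by -0.05, *Lgals9* by -0.12 and the *Lgals4* probes by -0.11 to -0.18. The dim probes moved most, *Lgals2* by -0.27 and *Lgals7* by 0.24, and the SD of this difference over all 33012 tested probes was 0.26. The AIMP3-depleted channel, which held a different replicate on each array, differed by 0.13 for *Lgals1*, 0.09 for *Lgals3*, -0.13 for *Lgals8*, 0.22 for *Lgals9* and 0.32 for *Lgals2*.

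The galectin ratios were also computed under other background corrections and dye normalizations. *Lgals3* ranged from 1.74 to 2.01 and *Lgals1* from 1.30 to 1.70 over these settings, with the highest values of both after median centring. *Lgals9* stayed over 1.5-fold in each, at 0.70 to 0.91. *Lgals8* was over 1.5-fold with the processed signals (0.60), with the authors' table (0.64) and with median centring (0.74), and *Lgals2* with no background subtraction, with the processed signals and with the authors' table. The number of galectins over 1.5-fold was accordingly 3 after normexp and loess, 4 with no background subtraction and 4 with median centring, where 5.88% and 11.8% of all tested genes lay over 1.5-fold on the higher side. It was 5 with the processed signals and 5 with the authors' table, where these shares were 8.28% and 9.06%.

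**Figure D3:**
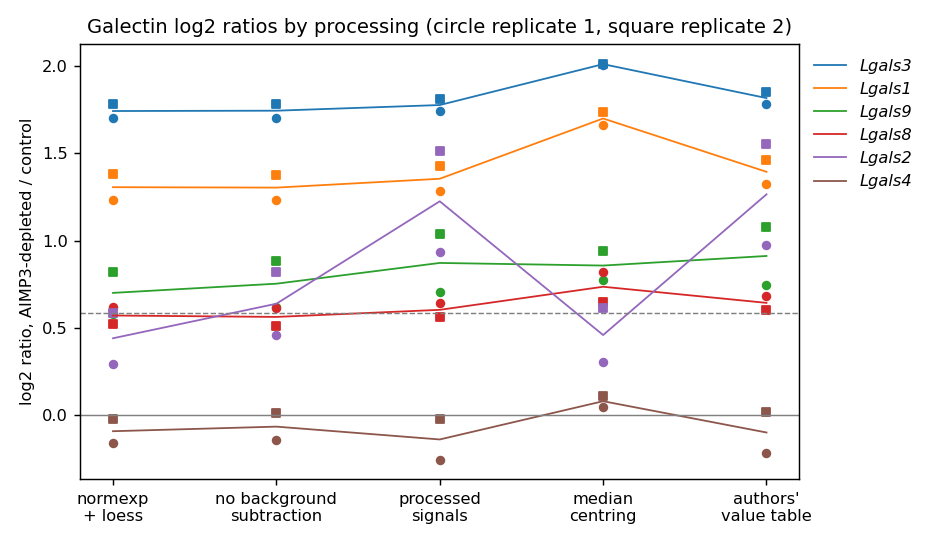
AIMP3-depleted over control cells as a log2 ratio (vertical axis) for the 6 measured galectin genes under 5 ways of processing the same arrays; lines join the means, circles are replicate 1, squares replicate 2, and the dashed line is 1.5-fold. *Lgals3* and *Lgals1* have the highest means under all 5, *Lgals2* moves between 0.44 and 1.27, and *Lgals4* stays between -0.14 and 0.08.

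Other genes of the family lay near equal levels or were too dim to measure. *Lgalsl*, a galectin-like gene, had a log2 ratio of 0.03 ± 0.0085 (SD, n = 2; limma adjusted p = 0.616), and *Grifin*, a lens galectin that lacks lectin activity, had 0.01 ± 0.028 (SD, n = 2; adjusted p = 0.804 by limma). Both turned negative with the processed signals (-0.09 and -0.19) and in the authors' table (-0.05 and -0.15), and *Grifin* also with no background subtraction. *Lgals12* was not well above background, and *Lgals6* had no probe named through RefSeq.

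Genes around the galectins were taken from 6 lists built by function, 98 genes in all, of which 90 were measured. Of these, 16 rose (17.8%, against 5.52% of all tested genes, which include unnamed accessions), 0 fell, and the median log2 ratio was 0.11. The lists were chosen with earlier results of these data known, so nothing is read from this comparison. With the processed signals 17 rose and 2 fell, where 7.84% of all tested genes rose and 3.03% fell. With the authors' table, 22 rose and 1 fell, against 8.56% and 2.4% of all tested genes. The genes changed after normexp and loess lay in 3 of the 6 lists.

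Glycoproteins that galectins bind, together with their receptors, held most of the changed genes. Of 25 measured genes of 28, 11 rose, 0 fell and 14 did not pass, where 5.52% of all tested genes rose and 0.791% fell. The median log2 ratio was 0.49 against 0.02 for all genes. *Lama1*, a laminin chain of basement membranes, had 1.02 ± 0.028 (SD, n = 2; adjusted p = 4.20e-05 by limma), and *Egfr*, the receptor of epidermal growth factor, had 1.00, although its other probes gave 0.32 and 0.59. *Cd44*, the hyaluronan receptor, rose by 0.96 with its brightest probe and 0.92 with the other. *Lamp1*, the heavily N-glycosylated protein of the lysosomal membrane, rose by 0.84. *Lgals3bp*, the secreted galectin-3-binding glycoprotein, had only 0.15, and *Havcr2*, which encodes TIM-3, had 0.47, with a control signal that was well above background on neither array, against 1.39 with the processed signals. The 1 gene of this list that fell with the processed signals (-0.72) and with the authors' table (-0.68) was *Lag3*, an inhibitory receptor of T cells. Of this list, 4 genes also stand on the marker lists of cell types below. Without them 9 of 22 measured genes rose, with a median of 0.48.

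Among the enzymes that build or cap the galectin-binding glycans, 1 was called changed, where 5.52% of all tested genes rose and 0.791% fell. Others had an adjusted p under 0.05 but stayed under 1.5-fold, such as *Mgat1* (limma adjusted p = 0.00104) and *St6gal1* (limma adjusted p = 0.000658). Of 11 measured genes of N-glycan branching 0 changed, with a median of 0.04, and the largest ratios were those of *Mgat1* (0.38), which starts complex N-glycans, and *Man1a* (0.30), a Golgi mannosidase whose control signal was well above background on neither array. *Mgat1* passed with median centring (0.67) and *Man1a* with the authors' table (0.60). Of 14 genes that make N-acetyllactosamine or branch it 0 changed, with a median of -0.03. The largest ratios there were -0.36 for *B4galt2*, a galactosyltransferase, and 0.33 for *B3gnt5*, which starts lacto-series glycolipids, and *Gcnt3*, which adds branches to O-glycans, passed with the processed signals (0.59) and with the authors' table (0.63). Among 9 measured enzymes that cap terminal galactose 1 rose and 0 fell, with a median of 0.05. *St3gal1*, which adds α2,3-linked sialic acid mainly to O-glycans, rose by 0.68 ± 0.12 (SD, n = 2; adjusted p = 0.000223 by limma), and its other probe gave 0.48. The call of *St3gal1* was lost with the mean of its probes (0.58) and with the methods' t-test. *St6gal1*, which adds the α2,6-linked sialic acid that hinders binding by most galectins, had -0.58 ± 0.17 (SD, n = 2) and ended just short of 1.5-fold, but was called lower with the processed signals (-0.61) and passed 1.5-fold without replicate 1 (-0.70).

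Partners of galectins at damaged lysosomes were all measured. Of 20 genes 4 rose, 0 fell and 16 did not pass, with a median of 0.13, where 5.52% of all tested genes rose and 0.791% fell. They were *Trim16* (0.84), a ubiquitin ligase that works with galectin-3 at damaged endomembranes, *Pdcd6ip* (0.77), which encodes the ESCRT adaptor ALIX, *Sqstm1* (0.63), the autophagy receptor p62, and *Gabarap* (0.62), a protein of autophagosome membranes. The other probe of *Trim16* gave 0.41 and that of *Gabarap* 0.52. The ratio of *Trim16* also depended on the processing, with 1.58 from the processed signals and 1.62 in the authors' table. *Gabarap* was under 1.5-fold with the mean of its probes (0.57) and without replicate 2 (0.55). With the methods' t-test 2 of the 20 genes rose, where 3.6% of all tested genes did. *Calcoco2*, which encodes the galectin-8 partner NDP52, had 0.06 and did not pass. Of 11 partners of galectins in the cytosol and nucleus 0 changed, with a median of 0.03, and the largest ratios were 0.45 for *Gsk3b*, a kinase of Wnt signalling that passed with median centring (0.68), and 0.33 for *Hras*, the membrane GTPase that galectin-1 anchors.

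**Figure D4:**
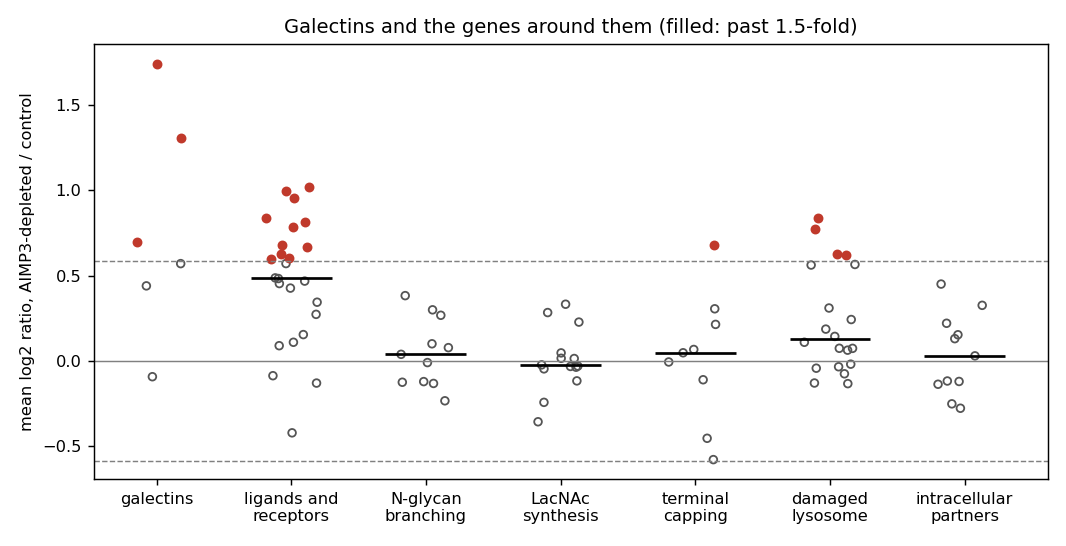
The mean log2 ratio of AIMP3-depleted over control cells (vertical axis) of each measured galectin and of each measured gene of 6 lists; filled points are past 1.5-fold (dashed lines) and bars are list medians, with none drawn for the galectins because they were chosen from this contrast. The points past the line are 3 galectins, 11 ligands and receptors, 1 capping enzyme and 4 lysosome partners, all on the higher side.

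Markers of other cell types were measured on the same arrays, where 5.52% of all tested genes rose and 0.791% fell. The marker lists, too, were chosen with earlier results of these data known. In bulk RNA a different number of cells of a type and a different amount of RNA per cell cannot be told apart. Of 20 fibroblast genes 19 were measured and 14 rose, with a median log2 ratio of 0.77. Their summed processed signal was 26743 to 26989 in the control and 62050 to 66849 in AIMP3-depleted cells, *Col1a1* (1.06) and *Col3a1* (0.95) were well above background in the control, and *Lum* did not pass the filter on dim probes. All 12 primitive endoderm genes rose, with a median of 1.08 and sums of 92426 to 98910 against 183876 to 191752. Of 9 trophectoderm genes 8 were measured and 6 rose, with a median of 0.87 and sums of 32904 to 34859 against 89068 to 97821. The other measured genes, *Eomes* (-0.16) and *Tfap2c* (-0.21), had ratios below 0, and *Elf5* was not measurable. Of 10 macrophage genes 8 were measured and 1 rose, *Lyz2* with 0.89, at a median of 0.23, while *Ptprc*, which encodes the leukocyte antigen CD45, did not pass the filter on dim probes. The macrophage sums were 9834 to 9968 in the control and 12363 to 12970 in AIMP3-depleted cells. Of 12 mESC genes 2 fell, *Fgf4* (-0.87) and *Tdgf1* (-0.59), and 10 did not pass. Of these, 5 had ratios above 0, from 0.12 for *Esrrb* to 0.50 for *Dppa5a*, and 5 had ratios below 0, from -0.15 for *Zfp42* through -0.38 for *Nanog* and -0.48 for *Pou5f1* to -0.53 for *Sox2*. The median of the mESC genes was -0.22, with sums of 153186 to 154541 against 145748 to 146279. The part of these cell types in the galectin ratios was not tested.

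Among markers of the tissues known for galectin-2, galectin-4 and galectin-7, few were measurable. Only 2 of 6 gut epithelium genes and 4 of 7 stratified epithelium genes passed the filter, *Cdx1* rose by 0.74, and none of the others passed 1.5-fold. *Cdh17*, *Fabp2*, *Muc2*, *Krt1*, *Dsg3* and *Ivl* did not pass the filter, nor did *Lgals7*.

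The genes whose ratios came nearest to those of each galectin over 1.5-fold were looked up among 14290 named genes well above background in every channel, by the distance of the log2 ratios over the 2 arrays. Nearest to *Lgals3* were *Anxa1* (1.72 and 1.79), a calcium-dependent membrane-binding protein, *Krt18* (1.76 and 1.80), a keratin of simple epithelia, and *Cavin2* (1.61 and 1.75), a caveola protein. Nearest to *Lgals1* were *Hkdc1* (1.24 and 1.35), *Acta2* (1.25 and 1.41), the smooth muscle actin, and *Cdkn2b* (1.20 and 1.36), an inhibitor of cyclin-dependent kinases. Nearest to *Lgals9* were *Cyp26b1* (0.58 and 0.82), which degrades retinoic acid, *Rasl11b* (0.57 and 0.80) and *Ptpn14* (0.60 and 0.79). A likeness over 2 arrays describes the size of the ratios only.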

How the data were processed

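Gene expression was measured on 2 two-colour Agilent mouse arrays, 1 for each AIMP3-depleted replicate, both on 1 slide. The authors deposited the scanner output of Feature Extraction (11.5.1.1 in the file headers), with the intensity of every spot and its surrounding background and with processed signals and their log10 ratio. The authors also deposited a table of log2 ratios, which equals the log2 ratio of the processed signals plus 0.040 or 0.039 on the 2 arrays (within 0.01 for 99.8% of probes). Its column medians were 0.091 and 0.11. All its columns of per-sample values were used.

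Median spot signals were corrected with limma's normexp (offset 50), control spots were dropped, ratios were normalized by loess, and flagged spots (215 and 227) were left out. Spots of a probe were averaged. Tests took the probes for which each array had 1 channel or both well above background (33012 of 55681 probes), and the brightest probe stands for a gene. Accessions were named through RefSeq (31014 of 59305 spots matched). An accession without a RefSeq name was kept as a gene of its own, so more than 1 of them can belong to the same gene. The array was designed on mm9, so no probe coordinates are given. Ratios were tested against 0 with limma's lmFit and eBayes (1 residual and 5.25 prior degrees of freedom), and p-values were adjusted by Benjamini-Hochberg over all 24022 genes. The test leaves out the spread of control cultures. The steps were tested on simulated data. Only 2 arrays stand behind each mean, which limits its precision.

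The galectins, the gene lists and the marker lists were chosen with earlier results of these data known. The text names every galectin probe, up to 4 changed genes of a list by size (or the 2 largest ratios where none changed), genes added for their known role whose values had been seen, and the 3 genes nearest to each galectin over 1.5-fold. The alternatives were no background subtraction, processed signals, median centring, the filter on dim probes left out or made stricter, gene means over all probes, the authors' table, a 2-fold threshold, the methods' t-test and each replicate left out. R 4.3.3 and limma 3.58.1 were used.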

Additional observations from a re-analysis of the deposited data

How the results depend on the processing

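The ratios of *Lgals3* and *Lgals1* stayed over 2-fold under every background correction, normalization and filter tried and on each array alone. The number of galectins over 1.5-fold was 3 as reported (5.52% of all tested genes), 5 with the processed signals (8.28%) and 5 with the authors' table (9.06%). It was 4 with no background subtraction (5.88%) and 4 with median centring (11.8%). It was 4 without replicate 1 (5.82%) and 3 without replicate 2 (5.51%). Over 2-fold were 2 galectins (1.17%). Without replicate 2 *Lgals9* (0.58) was under the line and *Lgals8* (0.62) over it, and without replicate 1 *Lgals2* (0.59) was over it. The count of changed genes over the whole array was 1517, of which 87.5% rose. It was 2611 with the processed signals (72.1% rises), 2632 with the authors' table (78.1%), 2888 with median centring (97.7%), 298 at a 2-fold threshold and 992 by the methods' t-test, of which 0 passed after Benjamini-Hochberg adjustment, and 1523 to 1651 with 1 replicate left out. Of the genes around the galectins 16 changed. Counts under other settings follow, with the shares of all tested genes called higher and lower in brackets. They were 27 with median centring (11.8% and 0.271%), 23 with the authors' table, 1 of them lower (8.56% and 2.4%), and 19 with the processed signals, 2 lower (7.84% and 3.03%). The methods' t-test gave 13 (3.6% and 0.533%) and the 2-fold threshold 1, *Lama1* (1.17% and 0.0708%). There were 15 without replicate 2 (5.51% and 0.833%) and 19 without replicate 1, 1 of them lower (5.82% and 1.05%). *Itgb1*, *Itga3* and *Sqstm1* dropped below 1.5-fold with the processed signals, *Itgb1*, *St3gal1* and *Gabarap* with the mean of all probes, and *Gabarap* without replicate 2. With 1 replicate left out the counts rest on the fold alone, since 1 array leaves no spread to test. The cause of these shifts was not tested. No paired analysis was possible because the control is 1 pool. Signal over background limits *Lgals2*, *Lgals7* and *Lgals12*.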
